A study of Mus musculus with 7 samples.

Results

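The tibialis anterior, the large muscle at the front of the lower leg, was followed along its length in 3 muscles labelled DMD, and the middle of each was set against its own ends. RNA had been sequenced from single serial cryosections. Sections with a total of 1000 counts or more that also reached 20% of their muscle's median were kept, and these were ordered by the section number in the column name and divided into 5 consecutive regions. This kept 192 of the 233 DMD sections (65 of 77, 67 of 83 and 60 of 73), out of 525 sections in the whole series. The middle region held 13, 13 and 12 sections, and the first and last regions together held 26, 26 and 24, so that 114 sections entered the comparison. The non-DMD muscles of the series, 2 labelled Ctr and 2 labelled WT, were divided in the same way. DMD is the group that the series title names for Duchenne muscular dystrophy, the muscle-wasting disease caused by loss of dystrophin. The column names carry mdx for DMD, hDMD for Ctr and pax7 for WT, which the labels do not explain. The labels name no treatment, and genotype, strain, sex and age were not given in the sources used here.

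A muscle is not the same along its length. Motor axons, wrapped in myelin by Schwann cells, enter it and end on each fibre at the neuromuscular endplate, where acetylcholine receptors are packed under the nerve ending. In adult fibres the nuclei below the nerve express the receptor genes and the other nuclei keep them low, whereas denervated and regenerating fibres express several of them along their length. At its ends each fibre inserts into tendon at the myotendinous junction, a folded membrane anchored to a collagen-rich matrix that tendon fibroblasts make. Without dystrophin, fibres tear, degenerate and are replaced, and macrophages and fibro-adipogenic progenitors, the matrix-making cells between fibres, gather where this happens.

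The 3 DMD muscles had 10064201, 2220415 and 5401385 counts in the middle region and 13387411, 3853325 and 6924124 in the end regions. Median section totals were higher in the middle (764929, 189768 and 505186 counts) than in the first region (526598, 131271 and 346616) and the last (496681, 119084 and 200172). Mitochondrially encoded genes took 30.9, 27.3 and 33.8% of counts in the middle and 28.7, 24.6 and 35.1% in the ends. Fast-fibre genes marked the tissue in every region, Myh4, the main fast myosin, lying at 12782, 9202 and 12009 CPM in the middle and 13054, 13181 and 10559.5 CPM in the ends, while the slow myosin Myh7 stayed at or below 0.433 CPM. The dystrophin gene Dmd was counted in the middle (12.1, 15.3 and 9.81 CPM) and in the ends (15.7, 22.8 and 7.65 CPM), and its difference did not pass the test at -0.17 ± 0.18 (adjusted p = 1). Such counts, summed over the gene, say nothing of the protein or the genotype. The labels do not say which end of a muscle was sectioned first, nor whether each muscle is from another animal. The p-values concern these 3 muscles only, and the spread used for a gene is estimated partly from all tested genes. A small p-value is therefore no measure of how alike the 3 muscles are for that gene. Section numbers ran in blocks with gaps between them. The labels do not say what a block is, and block and position along the muscle cannot be told apart.

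The comparison asked which genes differ between the middle and the ends of a DMD muscle. Counts were summed per region, and the 2 sums of a muscle were compared within that muscle with edgeR's quasi-likelihood test. Of 10924 genes tested, 43 (0.394%) passed at a Benjamini-Hochberg adjusted p below 0.05, 21 (0.192%) higher in the middle and 22 (0.201%) lower. The median log2 difference over all tested genes was -0.00135, and 509 genes had an unadjusted p below 0.05. Of the 43 called genes, 40 had 1 direction in all 3 muscles, against 21.96% of all tested genes, a count that a test within muscles favours. In 15 the CPM of the 3 middles and the 3 ends did not overlap. Over all tested genes such a separation was found in 2.28%. With each muscle in turn left out, 10 of the 43 were called every time, among them Crym, Chrne, Mbp and Retnla on the higher side, and Col22a1, Fmod, Chad, Mss51 and Tmem100 on the lower. DESeq2, another tool, called 9 of the 43, and of the genes just named Crym and Col22a1 were not among them. CPM scale a gene's counts by the total of its region, log2 differences come from the fit after TMM scaling, and ± after them is an approximate standard error. In such bulk sums, more cells of a type and more RNA per cell cannot be told apart.

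**Figure D1:**
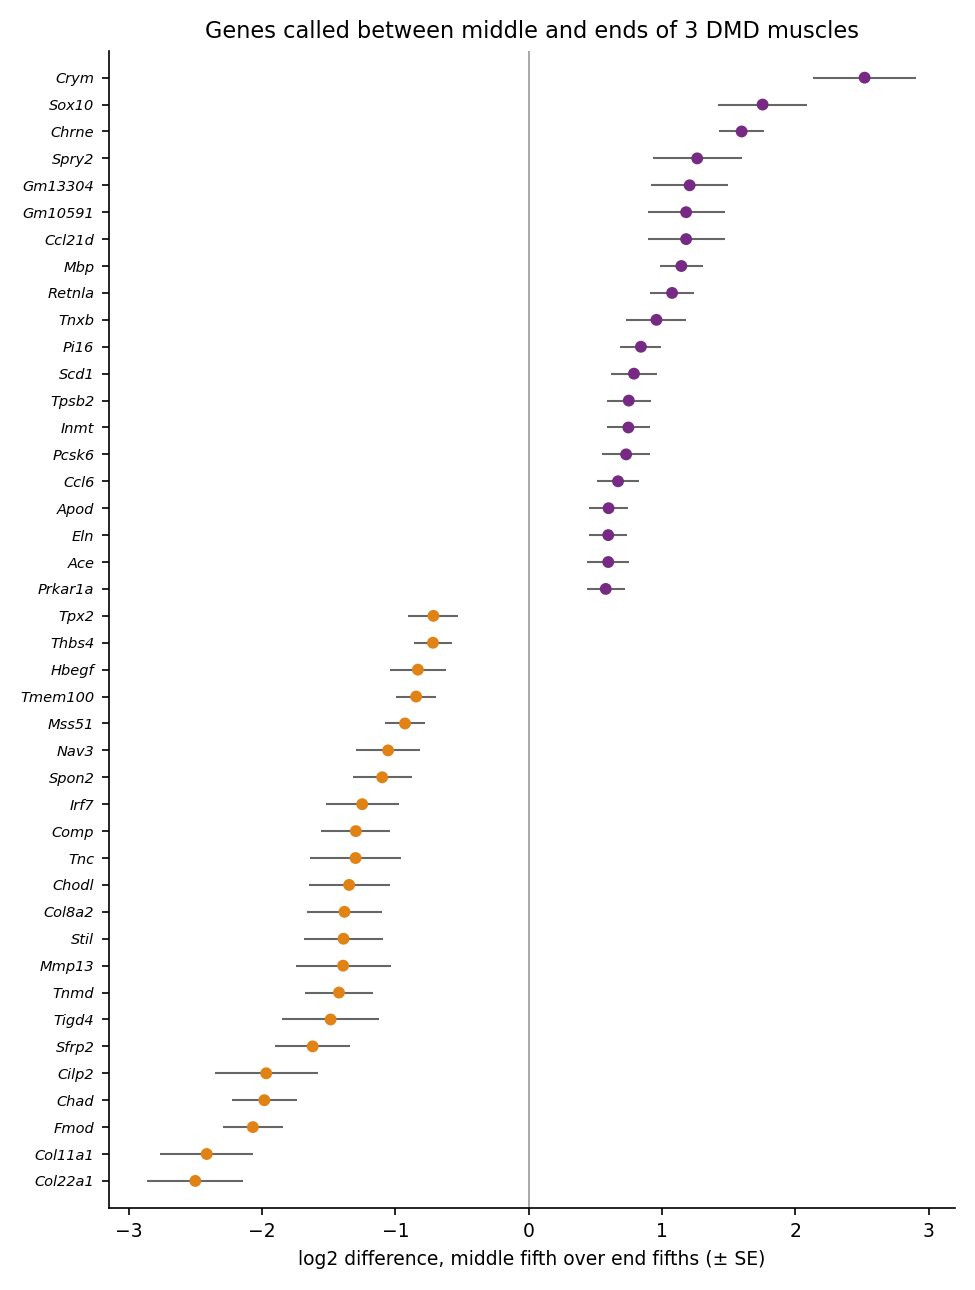
Log2 difference between the middle region and the end regions for genes called in the 3 DMD muscles. Points are estimates from the fit with the muscle as block and bars are ± 1 approximate standard error. Purple points lie above 0 (higher in the middle, up to 2.52 for Crym) and orange points below 0 (lower, down to -2.50 for Col22a1).

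The endplate was represented by Chrne, the epsilon subunit that marks the adult acetylcholine receptor (GRCm38 11:70614883-70619216). It had 24.05, 27.5 and 23.7 CPM in the middles of DMD replicates 1 to 3, against 7.92, 10.9 and 7.65 CPM in their ends. All 3 middles lay above all 3 ends, and the means were 25.1 ± 2.09 CPM and 8.82 ± 1.80 CPM (SD, n = 3). Chrne was 3.02-fold higher in the middle, a log2 difference of 1.60 ± 0.17 (adjusted p = 1.94e-14). From the first to the last region it ran through 4.53, 14.2, 24.1, 18.3 and 11.5 CPM in DMD replicate 1, 8.69, 25.7, 27.5, 23.4 and 12.9 CPM in replicate 2 and 6.07, 19.2, 23.7, 16.5 and 10.04 CPM in replicate 3, with the highest value in the middle region each time. The single section with the most Chrne lay at 49.2, 35.8 and 66.7% of the kept sections, with 43.1, 65.5 and 38.2 CPM against section medians of 13.4, 17.9 and 12.3 CPM. These sections rest on 33, 10 and 24 counts of Chrne. Chrne was detected in 62 of 65, 54 of 67 and 58 of 60 sections, so its transcript was not limited to the middle.

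For no other receptor subunit did the difference from both ends together pass in DMD muscle. Chrna1, the alpha subunit that binds acetylcholine (GRCm38 2:73563215-73580338), had 53.3, 52.7 and 31.8 CPM in the middles, against 57.96, 59.4 and 21.7 CPM in the ends. The middle was lower in 2 muscles and higher in 1, and the log2 difference was 0.12 ± 0.15 (adjusted p = 1). By regions it ran through 32.8, 58.5, 53.3, 59.1 and 84.3 CPM in DMD replicate 1, with the last region highest. Chrnb1 and Chrnd, the beta and delta subunits, differed by 0.05 ± 0.15 (adjusted p = 1) and -0.05 ± 0.26 (adjusted p = 1). Chrng, the gamma subunit that fetal receptors carry in place of epsilon, was counted at 6.36, 3.60 and 0.741 CPM in the middles and 6.65, 7.53 and 1.44 CPM in the ends, a difference of -0.25 ± 0.26 (adjusted p = 1). Of the 17 endplate genes listed, 13 passed the filter on low counts, and Chrne was the 1 that was called. The median of the 13 was 0.29. Among those that did not pass, Ufsp1, a protease whose transcript marks endplate nuclei, was at 0.98 ± 0.29 (adjusted p = 0.143) and Etv5, an ETS transcription factor of synaptic nuclei, at 0.59 ± 0.17 (adjusted p = 0.125). Colq, the collagen tail that anchors acetylcholinesterase, was at 0.57 ± 0.34 (adjusted p = 1) and the enzyme gene Ache at 0.19 ± 0.16 (adjusted p = 1). Rapsn and Dok7, which cluster the receptor, were at -0.11 and -0.44, with adjusted p of 1 and 1.

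The sequences before the starts of Chrne and Chrna1 are shown as a description. Whether they bear on the profiles was not tested, and in the non-DMD muscles both genes were higher in the middle. The sequences are the bases from 250 to 23 before the RefSeq start, in GRCm38.p6 and on the strand of the gene, ending where the gene body of Chrne begins in the count tables. Capitals mark E-boxes (CANNTG, the site of myogenic factors such as MyoD) and an N-box (CCGGAA, the ETS-factor site known from synaptic genes), searched on both strands. These motifs were chosen after the values had been seen, and no matches overlapped. Chrne lies at chr11:70619217-70619444 on the minus strand and Chrna1 at chr2:73580361-73580588 on the minus strand.
Chrne: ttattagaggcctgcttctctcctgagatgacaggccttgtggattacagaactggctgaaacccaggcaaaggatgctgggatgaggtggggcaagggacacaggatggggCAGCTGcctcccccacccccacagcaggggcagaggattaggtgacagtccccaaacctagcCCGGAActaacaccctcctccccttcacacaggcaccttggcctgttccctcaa
Chrna1: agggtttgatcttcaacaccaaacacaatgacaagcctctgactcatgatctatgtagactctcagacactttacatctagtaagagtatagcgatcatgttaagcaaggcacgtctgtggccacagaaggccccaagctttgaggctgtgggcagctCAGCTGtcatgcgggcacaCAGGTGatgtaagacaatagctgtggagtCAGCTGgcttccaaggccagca
The Chrne window held 1 E-box, 138 bases before the start, and 1 N-box, 76 bases before it. The Chrna1 window held 3 E-boxes, 92, 73 and 44 bases before the start, and no N-box. Of 32851 RefSeq promoter windows of the same 228 bases, 63.2% held an E-box and 10.1% an N-box, so a match describes the letters and is no evidence of binding.

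Genes of the nerve's sheath were higher in the middle. Mbp, which encodes myelin basic protein, a main component of the myelin sheath, had 28.8, 36.03 and 19.1 CPM in the middles, against 15.9, 17.4 and 6.64 CPM in the ends. All middles lay above all ends. Mbp was 2.21-fold higher, a log2 difference of 1.14 ± 0.16 (adjusted p = 3.05e-08). Sox10, the transcription factor that Schwann cells require, was at 4.87, 3.60 and 3.15 CPM in the middles and 1.49, 0.519 and 1.30 CPM in the ends, a log2 difference of 1.75 ± 0.34 (adjusted p = 0.00022). Without DMD replicate 1 its difference was 1.61 (adjusted p = 0.319). Along the muscle Mbp ran through 12.99, 30.3, 28.8, 23.3 and 18.98 CPM in DMD replicate 1, 17.4, 39.9, 36.03, 36.8 and 17.4 CPM in replicate 2 and 7.28, 29.8, 19.1, 11.01 and 5.71 CPM in replicate 3, highest in region 2 each time. Sox10 was highest in region 3, 3 and 2, at 4.87, 3.60 and 4.38 CPM. Of the 12 Schwann cell and myelin genes, 5 passed the filter, 3 were called higher and none lower, with a median of 1.14. The 2 that did not pass were Pmp22, a myelin membrane protein, at 0.39 ± 0.18 (adjusted p = 0.913) and Drp2, a dystrophin-related protein of Schwann cells, at -0.87 ± 0.39 (adjusted p = 0.885).

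The largest difference on the higher side was that of Crym, which encodes the thyroid-hormone-binding protein mu-crystallin (GRCm38 7:120186380-120202111). It had 4.17, 3.60 and 2.59 CPM in the middles, against 0.822, 0.779 and 0.289 CPM in the ends, without overlap, and differed by 2.52 ± 0.39 (adjusted p = 4.31e-07). The first regions held 0.146, 0 and 0 CPM and the last regions 1.53, 1.58 and 0.713 CPM, so the lowest values were in the first region. At these levels Crym was seen in 36, 21 and 24 of the 65, 67 and 60 kept sections. DESeq2 did not call Crym, which passed in 12 of the 15 alternative settings that tested it.

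**Figure D2:**
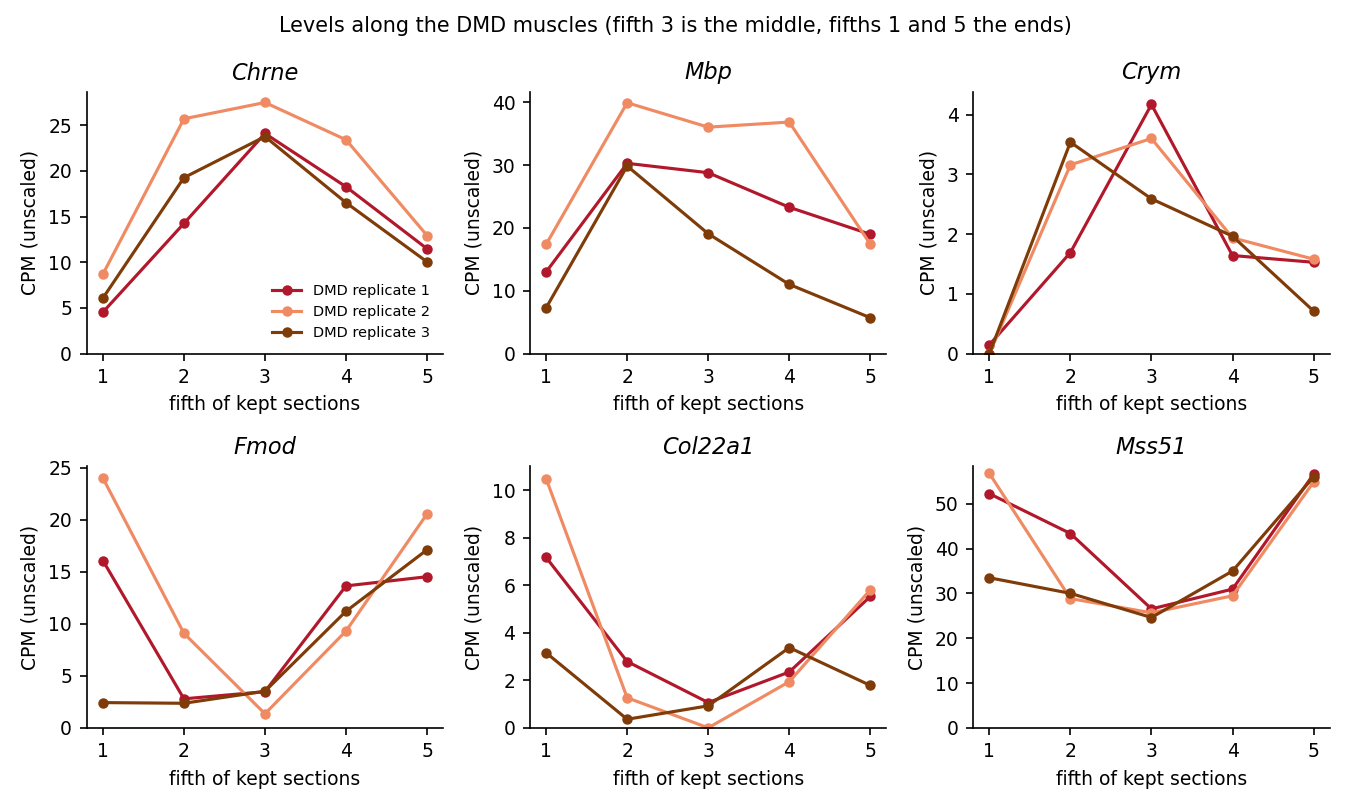
Unscaled CPM of 6 genes in 5 consecutive regions of the kept sections of DMD replicates 1 to 3 (one line per muscle). Chrne, Mbp and Crym were highest in region 2 or 3, at up to 27.5, 39.9 and 4.17 CPM, while Fmod, Col22a1 and Mss51 were higher in at least 1 end region than in the middle in every muscle.

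Several genes of cells that lie between the fibres were also higher in the middle. Retnla, a secreted protein made by alternatively activated macrophages and some stromal cells, had 21.2, 52.2 and 11.7 CPM in the middles, against 9.34, 24.1 and 7.80 CPM in the ends, a log2 difference of 1.07 ± 0.17 (adjusted p = 4.75e-07). The middle was higher than either end region in all 3 muscles. Pi16, a marker of fibroblasts around vessels, had 23.1, 79.7 and 23.7 CPM in the middles and 10.8, 63.1 and 11.8 CPM in the ends, a difference of 0.84 ± 0.15 (adjusted p = 6.56e-05). Without DMD replicate 1 it was 0.63 (adjusted p = 0.436). Of 11 fibro-adipogenic progenitor genes tested, Pi16 was the 1 called. Their median was 0.29, 10 of the 11 were above 0, and the most abundant, Gsn, was at 0.26 ± 0.15 (adjusted p = 1).

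Elastic and connective matrix genes on the higher side were Tnxb, which encodes tenascin X, at 0.96 ± 0.22 (adjusted p = 0.0103), and Eln, elastin, at 0.60 ± 0.14 (adjusted p = 0.0148). Eln had 42.8, 74.8 and 60.5 CPM in the middles and 32.6, 56.6 and 33.4 CPM in the ends. Tpsb2, a tryptase of mast cells, differed by 0.75 ± 0.16 (adjusted p = 0.00296) and the chemokine gene Ccl6 by 0.67 ± 0.16 (adjusted p = 0.0123). Apod, a lipid carrier, was at 0.60 ± 0.15 (adjusted p = 0.0195), the methyltransferase gene Inmt at 0.75 ± 0.16 (adjusted p = 0.00301) and Ace, the angiotensin-converting enzyme of endothelium, at 0.60 ± 0.16 (adjusted p = 0.0456). Prkar1a, a regulatory subunit of protein kinase A, had 122, 152 and 96.3 CPM in the middles, against 107, 86.7 and 61.1 CPM in the ends, and differed by 0.58 ± 0.14 (adjusted p = 0.0194). Called in none of the 3 fits that left out a muscle were Apod, Ace and Prkar1a. Without DMD replicate 1 the adjusted p ran from 0.089 for Prkar1a to 0.999 for Ace, except for Ccl6 at 0.0411. Without replicate 2 it was 0.0682 for Ace, 0.192 for Apod, 0.324 for Prkar1a and 0.612 for Ccl6, and the other 4 passed. Without replicate 3 it ran from 0.0529 for Inmt to 0.54 for Eln. All of these differences kept their sign in those 3 fits.

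A further 6 genes on the higher side are named because they were called. Spry2, an inhibitor of receptor tyrosine kinase signalling, was at 1.26 ± 0.33 (adjusted p = 0.048), and Pcsk6, a proprotein convertase whose exons overlap those of Gm45213, at 0.73 ± 0.18 (adjusted p = 0.0236). Ccl21d, Gm13304 and Gm10591 differed by 1.18, 1.21 and 1.18. They are near-identical copies of the Ccl21 chemokine gene that divide the same reads between them, so they count as 1 uncertain observation. Scd1, the desaturase of fat synthesis, had 32.3, 12.6 and 20.9 CPM in the middles, against 10.5, 10.6 and 21.8 CPM in the ends, a difference of 0.79 ± 0.17 (adjusted p = 0.00387). It was higher in the middle in 2 of 3 muscles, and without DMD replicate 1 the difference was -0.01 (adjusted p = 0.999). The other 5 were not called in at least 1 fit without a muscle: Spry2 was at 1.21 (adjusted p = 0.207) without replicate 2, Pcsk6 at 0.62 (adjusted p = 0.786) and Ccl21d at 0.96 (adjusted p = 0.786) without replicate 1, where the adjusted p of Gm13304 was 0.737 and of Gm10591 0.786. Without replicate 2 the adjusted p was 0.0578 for Scd1 and 0.0682 for Pcsk6 and for the 3 Ccl21 copies, and without replicate 3 it was 0.157 for Pcsk6.

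The ends were marked by tendon and junction genes, apart from the first region of DMD replicate 3. There the listed tendon genes summed to 17.0 CPM, against 17.6 CPM in its middle. The listed junction genes summed to 73.3 CPM there, against 76.5 CPM in its middle. Fmod, which encodes fibromodulin, a proteoglycan that binds collagen fibrils in tendon (GRCm38 1:134037254-134048277), had 3.48, 1.35 and 3.52 CPM in the middles, against 15.3, 22.3 and 8.38 CPM in the ends. All middles lay below all ends, and Fmod was 4.19-fold lower in the middle, a log2 difference of -2.07 ± 0.23 (adjusted p = 3.56e-14). By regions it ran through 16.1, 2.79, 3.48, 13.6 and 14.5 CPM in DMD replicate 1, 24.02, 9.09, 1.35, 9.31 and 20.6 CPM in replicate 2 and 2.43, 2.36, 3.52, 11.2 and 17.1 CPM in replicate 3. Both ends were high in replicates 1 and 2, and in replicate 3 the last region was high and the first was not. Chad, chondroadherin, a leucine-rich matrix protein, had 1.89, 7.21 and 1.48 CPM in the middles and 7.17, 14.01 and 14.3 CPM in the ends, a difference of -1.98 ± 0.25 (adjusted p = 4.2e-11). Tnmd, tenomodulin, a membrane protein of tendon cells, was at -1.42 ± 0.25 (adjusted p = 3.68e-05), Comp, cartilage oligomeric matrix protein, at -1.30 ± 0.26 (adjusted p = 0.000556), and Cilp2, a matrix protein related to Cilp, at -1.97 ± 0.38 (adjusted p = 0.000372). Of 6 tendon genes tested, 5 were called lower and none higher, with a median of -1.70. The sixth, Scx, the tendon transcription factor scleraxis, was at -0.52 ± 0.22 (adjusted p = 0.767). Tnmd was not called without DMD replicate 1, at -1.20 (adjusted p = 0.149), Cilp2 not without replicate 2, at -1.62 (adjusted p = 0.0629), and Comp not without replicate 3, at -1.10 (adjusted p = 0.0519).

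At the myotendinous junction, Col22a1, the collagen that is placed at the tips of fibres (GRCm38 15:71795795-72034227), had 1.09, 0 and 0.926 CPM in the middles, against 6.35, 8.30 and 2.60 CPM in the ends, without overlap. It was 5.66-fold lower in the middle, a log2 difference of -2.50 ± 0.36 (adjusted p = 3.74e-08). By regions it ran through 7.17, 2.79, 1.06, 2.35 and 5.52 CPM in DMD replicate 1, 10.5, 1.26, 0, 1.94 and 5.80 CPM in replicate 2 and 3.16, 0.361, 0.926, 3.37 and 1.78 CPM in replicate 3. Col11a1, a minor fibrillar collagen that was not on the junction list, was at 0.894, 0.450 and 1.30 CPM in the middles and 6.05, 12.2 and 2.02 CPM in the ends, a difference of -2.41 ± 0.35 (adjusted p = 4.46e-08). Thbs4, thrombospondin 4, an adhesive protein of tendon and junction, was the most abundant of these genes. It had 81.6, 94.6 and 71.5 CPM in the middles and 132, 181 and 114 CPM in the ends, without overlap, and differed by -0.72 ± 0.14 (adjusted p = 0.000508). Tigd4, a gene derived from a transposable element and listed with the junction, was at -1.49 ± 0.36 (adjusted p = 0.0191). Without DMD replicate 3 Thbs4 was at -0.70 (adjusted p = 0.0503) and Tigd4 at -1.44 (adjusted p = 0.0807). All 3 junction genes that passed the filter were called lower, with a median of -1.49, and 3 further listed genes were too low to test.

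Outside tendon and junction, 2 genes were called lower in the middle in every fit that left out a muscle. Mss51, a mitochondrial protein of fast fibres (GRCm38 14:20482867-20496901), had 26.5, 25.7 and 24.6 CPM in the middles, against 54.4, 55.8 and 42.6 CPM in the ends. The middles lay within 25.6 ± 0.955 CPM (SD, n = 3), all below the ends at 50.9 ± 7.24 CPM, and the log2 difference was -0.93 ± 0.15 (adjusted p = 1.97e-06). Its regions ran through 52.3, 43.4, 26.5, 30.96 and 56.6 CPM in DMD replicate 1, 56.8, 28.8, 25.7, 29.5 and 54.8 CPM in replicate 2 and 33.5, 30.02, 24.6, 35 and 56 CPM in replicate 3, lowest in the middle region each time. Tmem100, a membrane protein of endothelium and other cells, had 19.2, 21.6 and 40.4 CPM in the middles and 37.5, 43.9 and 66 CPM in the ends, a difference of -0.84 ± 0.15 (adjusted p = 3.68e-05). Chodl, chondrolectin, a membrane lectin found in motor neurons and satellite cells, had 2.09, 1.80 and 1.67 CPM in the middles and 5.75, 7.27 and 3.18 CPM in the ends, without overlap, and differed by -1.35 ± 0.30 (adjusted p = 0.00506). Of 6 satellite cell genes tested, Chodl was the 1 called lower, and the median was -0.28. Spry1, a brake on growth factor signalling that keeps satellite cells quiescent and the most abundant of the list, was at -0.08 ± 0.16 (adjusted p = 1). Chodl was at -1.38 (adjusted p = 0.312) without DMD replicate 1 and at -1.24 (adjusted p = 0.0895) without replicate 2.

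Col8a2, a short-chain collagen, was at -1.38 ± 0.28 (adjusted p = 0.000678), Spon2, a secreted matrix protein, at -1.10 ± 0.22 (adjusted p = 0.000556), and Nav3, a microtubule-associated protein, at -1.05 ± 0.24 (adjusted p = 0.00628). Hbegf, a growth factor of the EGF family, was at -0.83 ± 0.21 (adjusted p = 0.0267) and the collagenase gene Mmp13 at -1.39 ± 0.36 (adjusted p = 0.0324). In DMD replicate 1 Mmp13 lay at 11.8 CPM in the first region and at 3.68 CPM in the last, and in replicate 3 its middle was above its ends. Without DMD replicate 1 the differences were -1.07 (adjusted p = 0.569) for Col8a2, -1.16 (adjusted p = 0.089) for Spon2, -0.82 (adjusted p = 0.952) for Nav3 and -0.78 (adjusted p = 0.914) for Hbegf, and Mmp13 was too low to test. Without replicate 2 they were -1.03 (adjusted p = 0.0919) for Nav3, -0.77 (adjusted p = 0.139) for Hbegf and -1.46 (adjusted p = 0.0682) for Mmp13. The 3 genes that met the rule for naming by unadjusted p did not pass: the microtubule protein gene Map1b at -0.56 ± 0.16 (adjusted p = 0.104), Mettl11b, a methyltransferase gene, at -0.44 ± 0.15 (adjusted p = 0.332), and Sel1l3 at -0.38 ± 0.15 (adjusted p = 0.628).

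The last region of DMD replicate 1 stood apart from the other ends. The summed level of 15 macrophage genes was 766, 1360.0, 1509, 1795 and 3946 CPM from its first to its last region, against 1386, 1503, 1729, 1425 and 1205 CPM in replicate 2 and 140.3, 258, 275, 243 and 261 CPM in replicate 3. Its last region held the highest sum of the 15 regions. Gpnmb, a glycoprotein of lipid-laden macrophages, reached 337 CPM there, against 35.5 CPM in the first region of the same muscle, and Lyz2, the macrophage lysozyme, 748 against 202 CPM. Proliferation genes summed to 28.9, 53.8, 63.1, 72.7 and 205 CPM along replicate 1, 45.3, 35.6, 49.3, 46.8 and 24.4 CPM along replicate 2 and 3.20, 7.58, 7.85, 6.54 and 4.71 CPM along replicate 3. Interferon response genes summed to 82.6, 118, 132, 167 and 329 CPM along replicate 1, against 90.7, 105, 86.5, 88.5 and 84.03 CPM and 62.2, 67.4, 71.9, 65.02 and 57.4 CPM in the other two. Globin and other erythroid genes ran the opposite way in replicate 1, through 9422, 5466, 2567, 2000.0 and 1561 CPM. Along replicate 2 they ran through 5558, 5704, 5672, 4489 and 3899 CPM, with the middle above both ends. In replicate 3 both ends lay above the middle, at 6780.1 and 8908 CPM against 4418 CPM in its middle.

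**Figure D3:**
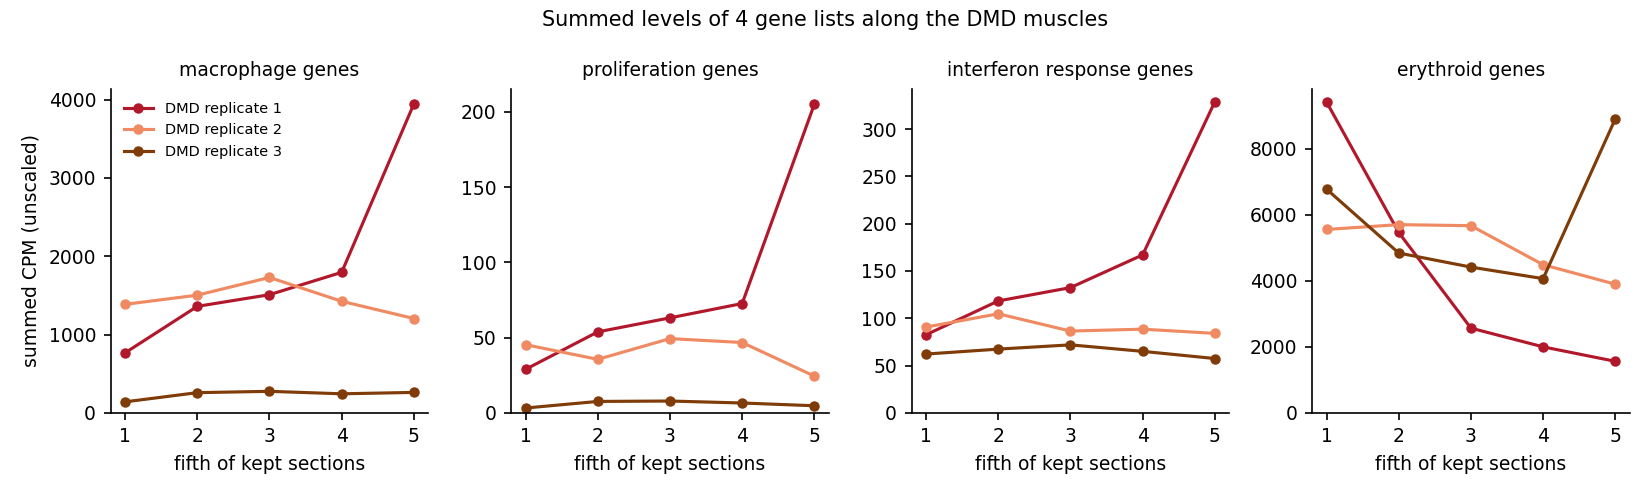
Summed unscaled CPM of 4 gene lists in 5 consecutive regions of the kept sections of DMD replicates 1 to 3 (one line per muscle). The macrophage, proliferation and interferon lists were highest in the last region of replicate 1, where the macrophage sum was 3946 CPM, and the erythroid list was highest in its first region at 9422 CPM.

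Several calls on the lower side rested on that region. Irf7, an interferon-induced transcription factor, had 4.47, 0.901 and 1.30 CPM in the middles and 13.5, 1.82 and 1.30 CPM in the ends, a difference of -1.25 ± 0.27 (adjusted p = 0.0032), and its level in the last region of replicate 1 was 25.7 CPM. Sfrp2, a secreted modulator of Wnt signalling, reached 29.8 CPM there and was called at -1.62 ± 0.28 (adjusted p = 2e-05). Stil, needed to build centrioles, was called at -1.39 ± 0.30 (adjusted p = 0.00212), Tpx2, a protein of the mitotic spindle, at -0.71 ± 0.19 (adjusted p = 0.0456), and Tnc, the injury matrix protein tenascin C, at -1.30 ± 0.34 (adjusted p = 0.0456). With the ends of replicate 1 taken from its first region, an alternative chosen after seeing the data, these 5 were not called: Irf7 turned to 0.48 (adjusted p = 0.863) and Sfrp2 to 0.55 (adjusted p = 0.839), and the others were at -0.22 (adjusted p = 0.958) for Stil, -0.18 (adjusted p = 0.935) for Tpx2 and -0.76 (adjusted p = 0.61) for Tnc. Hbegf was not called in that fit either, at -0.56 (adjusted p = 0.343). On the higher side Scd1, at 0.58 (adjusted p = 0.0659), Pcsk6, at 0.50 (adjusted p = 0.241), and the 3 Ccl21 copies, with Ccl21d at 0.77 (adjusted p = 0.264), were not called, and Spry2 was too low to test. Without replicate 1, Stil, Tpx2 and Tnc were at -0.69 (adjusted p = 0.999), -0.61 (adjusted p = 0.999) and -0.68 (adjusted p = 0.999), and Irf7 and Sfrp2 were too low to test. Without replicate 2, Tpx2 was at -0.78 (adjusted p = 0.066) and Tnc at -1.48 (adjusted p = 0.0698), and without replicate 3 Tpx2 was at -0.73 (adjusted p = 0.146).

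The macrophage genes depended on that region as well. In the comparison with both ends, 0 of 15 macrophage genes were called in either direction, with a median of 0.04, and 1 had an unadjusted p below 0.05. DESeq2 also called none of the 15. It called 9 genes in all, each among the 43, so its lack of calls adds no support here or for the lists below. With the last region of DMD replicate 1 left out, 119 of 10667 genes (1.12%) were called, 94 (0.881%) higher in the middle and 25 (0.234%) lower, and 31 of them were among the 43. In that fit 11 of the 15 macrophage genes were called higher and none lower, with a median of 0.59. The region was left out after the sums of these lists had been seen. Calls of macrophage and erythroid genes in that fit are therefore no independent evidence of a difference between middle and ends. Mrc1, the mannose receptor, was at 0.86 (adjusted p = 0.000213), Ctss, the protease cathepsin S, at 0.71 (adjusted p = 0.000746), and Lyz2 at 0.59 (adjusted p = 0.0086). All 5 erythroid genes were then called lower, with a median of -0.88. With both ends none of them passed by edgeR or DESeq2, although 5 had an unadjusted p below 0.05. Their median was -0.52, and Hba-a1, alpha-globin, was at -0.55 ± 0.16 (adjusted p = 0.135). In all 3 muscles the macrophage sum was lower in the first region than in the middle, and in the last region it was higher in replicate 1 and lower in replicates 2 and 3. Whether these genes were called thus depended on including the last region of 1 muscle.

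Matrix genes named above for tendon, junction and elastic fibres were among the called genes, and the list of matrix and fibrosis genes holds none of those. Of its 18 genes, Tnc was the 1 called, on the lower side, and the median was -0.11. Col1a1, the main fibrillar collagen, had 416, 425 and 196 CPM in the middles and 887, 710.3 and 155 CPM in the ends, a difference of -0.47 ± 0.15 (adjusted p = 0.23), and Sparc, a collagen-binding protein and the most abundant of the list, was at -0.25 ± 0.14 (adjusted p = 1). Of 12 regenerating fibre genes, none were called by edgeR or DESeq2, 3 had an unadjusted p below 0.05, and the median was -0.23. Actc1, the cardiac actin that young fibres make, had 391, 1217 and 577 CPM in the middles and 225, 966 and 446 CPM in the ends. It was higher in the middle in all 3 muscles but did not pass, at 0.54 ± 0.15 (adjusted p = 0.0632). Myh3, embryonic myosin, was at -0.20 ± 0.18 (adjusted p = 1) and Myod1, the myogenic factor, at -0.49 ± 0.15 (adjusted p = 0.156). None of 8 proliferation genes were called by either tool (median -0.40, 3 with an unadjusted p below 0.05), and the most abundant, Top2a, whose exons overlap those of Gm23451, was at -0.43 ± 0.21 (adjusted p = 1). Of 6 interferon response genes Irf7 was the 1 called, 5 lay below 0, 5 had an unadjusted p below 0.05, and the median was -0.63. The most abundant, H2-K1, a class I histocompatibility gene and the 1 above 0, was at 0.04 ± 0.14 (adjusted p = 1). These list medians changed sign with the ends of DMD replicate 1 taken from its first region, a fit chosen after seeing the data. They were then 0.83 for proliferation, 0.31 for interferon response, 0.06 for regenerating fibre and 0.12 for matrix and fibrosis genes.

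The listed genes of the contractile and metabolic machinery of the fibres did not pass, though Mss51, on none of these lists, was called. None of 12 fast fibre genes (median 0.03), 7 slow fibre genes (-0.02), 16 nuclear respiratory chain genes (0.09), 9 mitochondrially encoded genes (0.14), 12 fatty acid use genes (0.11) or 12 glycolysis and glycogenolysis genes (-0.01) were called. Atp2a1, the calcium pump of fast fibres, was at -0.11 ± 0.18 (adjusted p = 1), with an approximate 95% interval of -0.46 to 0.24. Cox6a2, a subunit of cytochrome oxidase, was at 0.13 ± 0.16 (adjusted p = 1), mt-Cytb, cytochrome b, at 0.14 ± 0.18 (adjusted p = 1), and Aldoa, the muscle aldolase, at -0.01 ± 0.16 (adjusted p = 1), with an interval of -0.32 to 0.30. Mb, myoglobin, was at 0.11 ± 0.15 (adjusted p = 1) and Tpm3, slow tropomyosin, at -0.14 ± 0.15 (adjusted p = 1). Of 13 dystrophin complex genes none were called (median -0.05). None of 8 calcium release and storage genes were called either (median 0.01), Casq1, calsequestrin, lying at 0.00 ± 0.16 (adjusted p = 1) with an interval of -0.31 to 0.31. By DESeq2, too, 0 genes of these lists were called. By unadjusted p below 0.05, 0 fast fibre, 1 slow fibre, 0 respiratory chain, 0 mitochondrially encoded, 1 fatty acid use, 0 glycolysis, 1 dystrophin complex and 1 calcium genes passed.

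The listed vessel and stress genes did not pass, though Ace and Tmem100, named above and on none of these lists, did. The medians were 0.21 for 10 endothelial genes, 0.18 for 6 pericyte and smooth muscle genes, 0.11 for 2 adipocyte genes, 0.00 for 8 atrophy and denervation genes, -0.02 for 10 immediate early and heat shock genes and -0.10 for 8 stretch and sarcomere stress genes. No member was called by either tool, and 2, 2, 0, 1, 1 and 2 of them in that order had an unadjusted p below 0.05. The most abundant members were Kdr, a receptor of vessel growth, at 0.20 ± 0.14 (adjusted p = 1), Acta2, smooth muscle actin, at 0.19 ± 0.14 (adjusted p = 1), and Plin4, a lipid droplet protein, at 0.04 ± 0.15 (adjusted p = 1). Mt1, metallothionein, was at 0.10 ± 0.14 (adjusted p = 1), Nr4a1, an immediate early receptor, at 0.14 ± 0.16 (adjusted p = 1), and Cryab, the small heat shock protein of the sarcomere, at -0.08 ± 0.15 (adjusted p = 1). Lymphocyte, granulocyte, and bone, cartilage and skin genes did not pass the filter on low counts, and their summed levels reached 2.29, 5.11 and 19.9 CPM at most in any region, the last of these in the first region of DMD replicate 1.

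**Figure D4:**
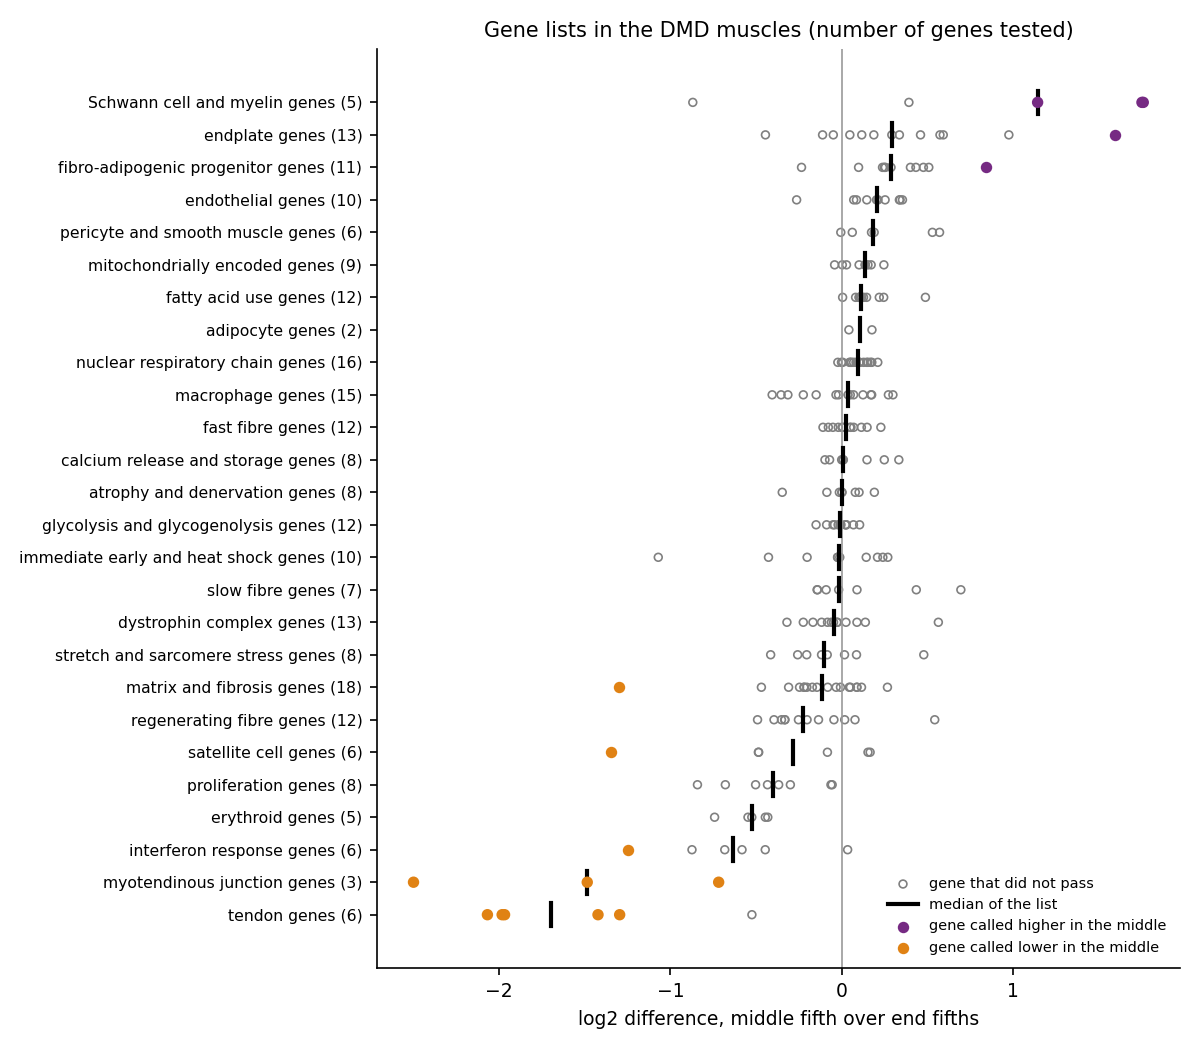
Log2 difference between the middle region and the end regions of the 3 DMD muscles for every tested member of the gene lists, with the number tested after each name. Filled points were called (purple higher in the middle, orange lower), open points were not, and black bars are list medians. Schwann cell genes lie farthest to the right at a median of 1.14 and tendon genes farthest to the left at -1.70, while the medians of the fibre lists lie near 0.

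To ask whether the differences were those of any tibialis anterior, the DMD difference was set against the mean of the Ctr and WT differences in 1 fit of all 7 muscles, over 9105 genes. In the 4 non-DMD muscles 37 genes (0.406%) were called between middle and ends, 18 (0.198%) higher and 19 (0.209%) lower. Of the 43 genes called in DMD, 26 were tested in this fit, 22 of these had the same sign in the non-DMD muscles, and 12 were called there too. Among them, Chrne had 7.09, 13.4, 8.85 and 5.61 CPM in the middles of Ctr replicates 1 and 2 and WT replicates 1 and 2, against 0.821, 3.39, 1.90 and 1.62 CPM in their ends, a difference of 2.16 ± 0.24 (adjusted p = 1.31e-06). The DMD difference of Chrne minus that of the non-DMD muscles was -0.58 ± 0.29 (adjusted p = 0.999) and did not pass. For Mbp the non-DMD difference was 1.32 ± 0.14 (adjusted p = 3.19e-07) and the DMD minus non-DMD value -0.20 ± 0.20 (adjusted p = 0.999). For Crym they were 2.39 ± 0.42 (adjusted p = 0.0019) and 0.08 ± 0.64 (adjusted p = 1), for Fmod -1.68 ± 0.29 (adjusted p = 0.0019) and -0.41 ± 0.45 (adjusted p = 0.999), and for Tmem100 -0.80 ± 0.10 (adjusted p = 1.93e-05) and -0.05 ± 0.16 (adjusted p = 1). A value that misses the threshold does not show that the groups are alike.

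The difference itself passed the test for 4 of 9105 genes (0.0439%), 3 (0.0329%) with a higher value in DMD and 1 (0.011%) with a lower one, and 437 genes had an unadjusted p below 0.05. The lower one was Chrna1. In the non-DMD muscles it had 6.07, 5.73, 6.22 and 2.81 CPM in the middles of Ctr replicates 1 and 2 and WT replicates 1 and 2, and 0.821, 1.06, 1.14 and 1.39 CPM in their ends, higher in the middle in 4 of 4, where the DMD middles were higher in 1 of 3. The middle-against-ends difference was 0.10 ± 0.12 (adjusted p = 1) in DMD and 2.23 ± 0.32 (adjusted p = 7.68e-05) in the non-DMD muscles, and the DMD minus non-DMD value was -2.13 ± 0.34 (adjusted p = 0.00216). The ends of the DMD muscles carried 46.4 ± 21.4 CPM (SD, n = 3), against 1.10 ± 0.235 CPM in the ends of the non-DMD muscles (SD, n = 4, 22 counts in all). The call was lost without WT replicate 1, at -1.73 (adjusted p = 0.293), and without Ctr replicate 1, at -2.02 (adjusted p = 0.145). Etv5 differed by 1.86 ± 0.26 (adjusted p = 7.17e-05) in the non-DMD muscles, but its DMD minus non-DMD value of -1.28 ± 0.32 (adjusted p = 0.57) did not pass.

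Ankrd1, a stress-induced ankyrin-repeat protein of the sarcomere (GRCm38 19:36111961-36120099), had 338, 122 and 63.5 CPM in the DMD middles and 481, 189 and 74.96 CPM in the DMD ends, against 0.337, 0.764, 2.29 and 9.02 CPM in the middles and 9.19, 11.01, 17.8 and 23.6 CPM in the ends of Ctr replicates 1 and 2 and WT replicates 1 and 2. The middle was lower than the ends in all 7 muscles. The difference was -0.42 ± 0.12 (adjusted p = 0.238) in DMD and -3.08 ± 0.30 (adjusted p = 1.2e-07) in the non-DMD muscles, and the DMD minus non-DMD value was 2.66 ± 0.35 (adjusted p = 7.14e-05). In Ctr replicates 1 and 2 Ankrd1 was seen in 33 of 61 and 32 of 55 kept sections, with 6 and 3 counts in the highest. The Ctr middles thus rest on few counts. The sizes of the non-DMD difference and of the value against Ctr alone below are therefore uncertain. In DMD its regions ran through 434, 404, 338, 355 and 531 CPM in replicate 1, 275, 135, 122, 121 and 101 CPM in replicate 2 and 92.96, 67.6, 63.5, 59.97 and 48.6 CPM in replicate 3, so that the first region lay above the middle in every muscle and the last region in replicate 1 alone.

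Cilp, which encodes cartilage intermediate layer protein, a matrix protein that binds growth factors (GRCm38 9:65265180-65280605), had 197, 317 and 156 CPM in the DMD middles and 204, 306 and 136 CPM in the DMD ends, above the ends in 2 of 3 muscles. In Ctr replicates 1 and 2 and WT replicates 1 and 2 it had 7.42, 11.5, 19.7 and 47.5 CPM in the middles, against 32.01, 42.8, 78.9 and 83.7 CPM in the ends, lower in the middle in 4 of 4. The difference was 0.10 ± 0.13 (adjusted p = 1) in DMD and -1.70 ± 0.16 (adjusted p = 1.2e-07) in the non-DMD muscles, with a DMD minus non-DMD value of 1.80 ± 0.21 (adjusted p = 2.06e-05). Mss51 was lower in the middle in all 7 muscles. The non-DMD muscles had 6.75, 3.44, 11.96 and 12.8 CPM in the middles and 53.02, 42.8, 41.6 and 44.96 CPM in the ends, and the difference was -0.94 ± 0.12 (adjusted p = 2.16e-05) in DMD and -2.53 ± 0.14 (adjusted p = 3.7e-13) in the non-DMD muscles. The DMD minus non-DMD value was 1.59 ± 0.19 (adjusted p = 2.06e-05). The DMD middles averaged 25.6 ± 0.955 CPM (SD, n = 3), against 8.74 ± 4.44 CPM in the non-DMD middles (n = 4). The first and last regions pooled were at 50.9 ± 7.24 CPM and 45.6 ± 5.16 CPM. The section with the most Mss51 lay at 100, 100, 90 and 93.8% of the kept sections in Ctr replicates 1 and 2 and WT replicates 1 and 2. In DMD replicates 1 to 3 it lay at 89.2, 1.5 and 86.7%. Whether the first and last ends differ separately between the groups was not tested. Against Ctr alone, counted with the same annotation as DMD, the same 4 genes were called (0.0439% of 9105), at -2.53 ± 0.49 (adjusted p = 0.0377) for Chrna1, 3.77 ± 0.62 (adjusted p = 0.00417) for Ankrd1, 2.11 ± 0.30 (adjusted p = 0.000549) for Cilp and 2.30 ± 0.27 (adjusted p = 2.17e-05) for Mss51. Without Ctr replicate 1 or without Ctr replicate 2 that count was 1, Mss51.

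**Figure D5:**
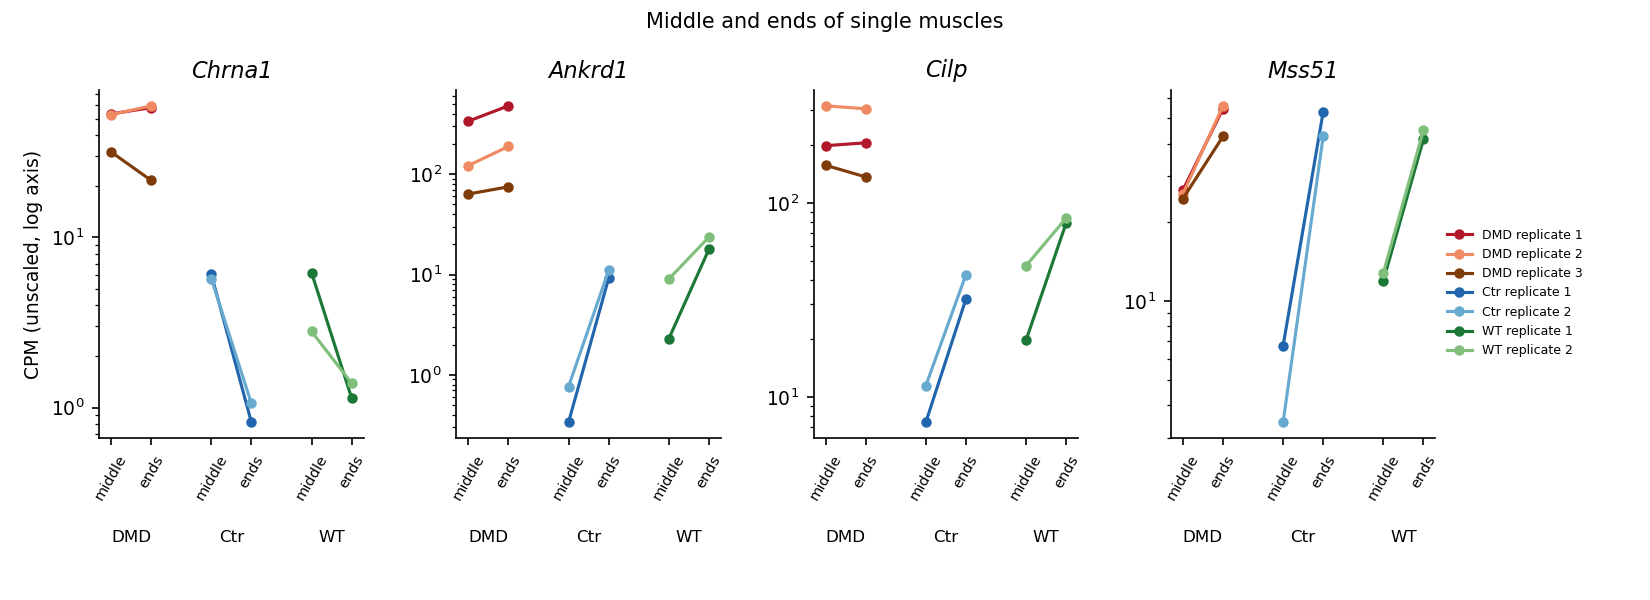
Unscaled CPM on a log axis in the middle region and the end regions of single muscles, with DMD on the left, then Ctr and WT, and a line joining the regions of each muscle. Chrna1 and Cilp have no common direction in the DMD muscles (middle means 45.9 and 223 CPM, end means 46.4 and 215 CPM) and slope one way in the 4 non-DMD muscles, and Ankrd1 and Mss51 slope less steeply in DMD.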

How the data were processed

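Single cryosections of 7 tibialis anterior muscles (2 WT, 2 Ctr, 3 DMD) had been sequenced as polyA RNA, extracted with TRIZOL per the labels. Values in the deposited tables are expected counts. The headers show that featureCounts divided multi-mapped and multi-overlapping reads into fractions and counted by strand. STAR 2.7.7a and the build GRCm38 are named in the submitters' processing notes. By those headers WT counts rest on a different annotation from the rest, so the 53083 genes shared by all tables with 1 length were used.

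Expected counts of kept sections were summed per muscle and region and rounded to whole numbers. Middle and ends come from 1 muscle, so the muscle was the block. edgeR 4.0.16 in R 4.3.3 was run with filterByExpr, TMM scaling and quasi-likelihood F tests, p adjusted by the Benjamini-Hochberg method over all genes tested. The method was run on simulated counts with the same spread for every gene, and only genes with higher counts were changed. No muscle was given a region difference of its own. The simulation therefore does not show how changes in genes of low counts are found, nor how differences between muscles affect the calls. Standard errors are the absolute log2 difference over the square root of F. CPM in the text are unscaled, and TMM factors of the middle and end sums were 1.12 and 1.23 in DMD replicate 1, 1.05 and 1.11 in replicate 2 and 0.818 and 0.762 in replicate 3. Depth per region is given in the report. Intervals cover the error of the fit. DESeq2 1.42.0 was an alternative, beside other scalings, filters, region widths, single ends, left-out muscles and thinned sections.

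The members and the 29 gene lists were chosen with earlier results of these data known. Genes were named by rule if called with at least 20 CPM and 1 direction in all 3 muscles and at least 5 of 6 single ends (up to 12 a direction, filled to 6 by unadjusted p), as called members of a list (up to 3) or its most abundant member, or from the DMD minus non-DMD test. Other called genes are named because they were called. No sample was left out. Promoter sequences are from RefSeq. Some called or named genes are not reported here.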

Additional observations from a re-analysis of the deposited data

Results flagged for a closer look

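For 4 genes the test of the difference between DMD and non-DMD muscles passed, and they are listed for that reason. The DMD minus non-DMD value of the middle-against-ends log2 difference was -2.13 for Chrna1 (adjusted p = 0.00216), 2.66 for Ankrd1 (adjusted p = 7.14e-05), 1.80 for Cilp (adjusted p = 2.06e-05) and 1.59 for Mss51 (adjusted p = 2.06e-05), by edgeR's quasi-likelihood test over 9105 genes. Higher in the middle than in the ends, Chrna1 was found in 1 of 3 DMD and 4 of 4 non-DMD muscles and Cilp in 2 of 3 DMD and 0 of 4 non-DMD muscles. Ankrd1 and Mss51 were lower in the middle than in both ends together in all 7. For Ankrd1 the DMD difference by itself did not pass, and in DMD replicates 2 and 3 its last region lay below the middle.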

How the results depend on the processing

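The count of 43 genes (21 higher, 22 lower) moved by over 1.5 times with the tool, the scaling, the block, the choice of end, thinning, the division into regions and the loss of DMD replicate 1. DESeq2 called 9 (4 higher, 5 lower), all among the 43. Chrne, Mbp, Retnla, Fmod, Chad, Mss51, Tmem100 and Thbs4 were among the 9. Of the called genes that it did not call, the DESeq2 adjusted p was 0.0877 for Pi16, 0.334 for Prkar1a and 0.495 for Eln. For Ccl6, Apod and Ace it was 0.9999. Without TMM scaling 24 were called (7 higher, 17 lower), and the median log2 difference of all genes shifted to -0.06. The first region as the only end gave 155 (122 higher, 33 lower) and the last region 22 (13 higher, 9 lower). Sections thinned to 1 total gave 9 genes (4 higher, 5 lower), of which 5 were among the 43: Chrne, Retnla, Fmod, Mss51 and Thbs4. Regions of equal section-number width gave 27 (12 higher, 15 lower), and ends of DMD replicate 1 from its first region, added after seeing the data, gave 119. Leaving out 1 muscle gave 23 to 51 genes, with 23 without DMD replicate 1 (12 higher, 11 lower), 39 without replicate 2 (12 higher, 27 lower) and 51 without replicate 3 (18 higher, 33 lower). Without a filter on low counts 55 were called (18 higher, 37 lower), with every section of at least 1000 counts 48 (17 higher, 31 lower), and with regions of 10% in place of 20% of the sections 29 (17 higher, 12 lower). Of the 50 genes named by rule 22 were called, against 9 by DESeq2, 9 against the last region, 7 in thinned sections and 14 with regions of equal section-number width, and 12 to 16 without 1 muscle. Without the replicate block, which pairs the regions of 1 muscle, edgeR called 0 genes (58 with an unadjusted p below 0.05), 0 of the named genes, 0 for DMD minus non-DMD (92) and 0 for DMD minus Ctr (101). DESeq2 with the block called 9, 4 and 3. The DMD minus non-DMD count of 4 ranged from 3 to 6 when 1 muscle was left out. The DMD minus Ctr count of 4 ranged from 1 to 5, being 1 without either Ctr replicate, and was 7 without a filter on low counts. Irf7 changed sign to 0.48 with the ends of DMD replicate 1 from its first region. The filter on low counts left 17 of the 43 untested in the fit of 7 muscles.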
